A study of Mus musculus with 24 samples.

Results

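Collagen genes were taken as every row of the deposited count table whose symbol is Col, a number, the letter a and a number. This rule found 44 of the 32962 genes in the table, and it used no measured value. The series profiled nuclei of the mouse lumbar spinal cord with Drop-seq. In this assay each captured mRNA in a droplet gets a unique molecular identifier (UMI), so that copies of 1 molecule are counted once. All 24 samples came from ICR/CD-1 mice, an outbred stock, 8 to 11 weeks old, with no transgene named in the labels. The dorsal root ganglia had been removed. Each sample is counted here as 1 mouse. The labels do not say whether formalin samples numbered n and n + 5 share an animal. The 9 control mice received no stimulus, the 10 formalin mice received an injection of 30 µl of 2% paraformaldehyde in the sole of each hindpaw, and the 5 rotarod mice walked on a rod that sped up to 40 rotations per minute over 5 minutes. A tissue label reads brain, but protocol and title both speak of spinal cord. No source used here gives the time from stimulus to collection. Some control samples carry titles of another form than the other controls, and no formalin or rotarod sample has that form. The labels do not say whether these controls were prepared apart, and no comparison leaving all of them out is given here.

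Collagens are secreted or membrane-bound proteins whose chains wind into a stiff helical rod. Fibrillar types build the fibres of connective tissue, type IV collagens form the sheet-like network of basement membranes, and other types coat fibrils, span the plasma membrane or make finer networks. In and around the spinal cord, collagen is known from the meninges, from the sheaths of the nerve roots and from the basement membrane of blood vessels.

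The authors gave 13425 nuclei 1 of 7 classes. Of these, 1839 nuclei with a median of 1281 UMIs were in the meninges/Schwann class and 727 with a median of 1538 UMIs in the endothelial/vascular class, while 7103 were neurons with a median of 2214 UMIs. Total UMIs per mouse ran from 549903 to 3243587. The level of a gene is given in CPM, its UMIs per 1000000 UMIs of the same nuclei, as the mean ± SD over mice that had 10 or more nuclei in the class. All 10 meningeal fibroblast and all 10 Schwann cell markers had UMIs in the meninges/Schwann class, with summed levels of 2482 and 6216 CPM when mice were pooled. Endothelial markers summed to 18149 CPM in the endothelial/vascular class, against 474 in the meninges/Schwann class. The meninges/Schwann class also held UMIs of other marker lists, at 8215 CPM for neurons, 4278 for oligodendrocytes and 1572 for ependymal cells. In their own classes the neuron and oligodendrocyte markers summed to 41757 and 18086 CPM. Ependymal markers in the other classes ran from 70.0 CPM in endothelial/vascular nuclei to 203 in microglia. The part of such cells or of their RNA in the collagen levels was not tested. Levels by class are a description, since the authors drew the classes from these transcriptomes. A nuclear level cannot be read as an amount of protein, and fewer cells of a kind within a class cannot be told apart from less RNA per nucleus.

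The main contrasts within the meninges/Schwann class turn on 4 genes, and the 250 bases before their start sites are shown first. Col25a1 encodes a membrane-spanning collagen and Col8a1 a short-chain network collagen, and both were high in nuclei with meningeal markers. Col5a3 encodes a minor chain of type V fibrils and Col24a1 a fibrillar collagen, and both were high in nuclei with Schwann cell markers. The windows are chr3:130180595-130180844 on the plus strand for Col25a1, chr16:57754738-57754987 on the minus strand for Col8a1, chr9:20815068-20815317 on the minus strand for Col5a3 and chr3:145292222-145292471 on the plus strand for Col24a1. They come from RefSeq on GRCm38.p6 and are written 5′ to 3′ on the strand of the gene. Capitals mark the letters of CCAAT and GGGCGG on either strand, so that CCGCCC is GGGCGG read on the other strand.
Col25a1: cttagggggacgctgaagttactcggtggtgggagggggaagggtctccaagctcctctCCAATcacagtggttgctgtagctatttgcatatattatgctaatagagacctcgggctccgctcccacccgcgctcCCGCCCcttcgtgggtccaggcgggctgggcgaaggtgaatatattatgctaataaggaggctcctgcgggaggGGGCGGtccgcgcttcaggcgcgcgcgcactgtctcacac
Col8a1: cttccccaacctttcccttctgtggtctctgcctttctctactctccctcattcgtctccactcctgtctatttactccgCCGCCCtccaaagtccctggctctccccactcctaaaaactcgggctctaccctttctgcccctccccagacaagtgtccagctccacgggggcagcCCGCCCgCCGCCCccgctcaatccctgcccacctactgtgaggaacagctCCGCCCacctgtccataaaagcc
Col5a3: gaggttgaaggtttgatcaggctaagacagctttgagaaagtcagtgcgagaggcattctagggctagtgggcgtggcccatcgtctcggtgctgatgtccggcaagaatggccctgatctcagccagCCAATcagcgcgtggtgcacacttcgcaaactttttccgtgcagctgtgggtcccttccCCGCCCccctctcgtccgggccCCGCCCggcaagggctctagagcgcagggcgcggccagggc
Col24a1: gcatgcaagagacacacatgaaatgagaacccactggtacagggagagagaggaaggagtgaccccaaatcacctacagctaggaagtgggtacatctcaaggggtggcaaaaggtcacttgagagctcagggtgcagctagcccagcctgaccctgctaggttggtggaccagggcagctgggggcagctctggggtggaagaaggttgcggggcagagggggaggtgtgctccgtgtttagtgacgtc

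The Col8a1 window held 4 copies of GGGCGG, the windows of Col25a1 and Col5a3 held 2 copies of it and 1 of CCAAT each, and the window of Col24a1 held none of the motifs searched. GC content was 60.4%, 60.8%, 62.8% and 58.0% in the order in which the windows are listed. A RefSeq promoter window was found for 35 of the 44 collagen genes, 38 windows in all. GGGCGG was in 22 of these 38 windows, against 32.7% of all 32851 windows of the genome. For CCAAT the count was 13 of 38 against 33.8%, for TATAAA 5 of 38 against 12.4%, and for ACAAAG 4 of 38 against 16.5%. The motifs do not overlap each other in letters, each was searched on both strands, and a match is a description of letters and no binding site. The RefSeq start of Col25a1 used here differs from the gene start at position 130131501 of chromosome 3 in GENCODE M21. The other 3 windows end next to the GENCODE start of their gene.

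All collagens together made up 5562 ± 1122 CPM in the meninges/Schwann class (SD, n = 24 mice). The lowest mouse had 3407, the median 5408 and the highest 7895 CPM. In the other classes the sum was 1102 ± 260 in endothelial/vascular nuclei (n = 23), 1164 ± 162 in neurons (n = 24), 1190 ± 275 in astrocytes (n = 23) and 669 ± 131 in oligodendrocytes (n = 23). The meninges/Schwann sum was 5.06 times the endothelial/vascular one and was higher in 23 of 23 mice. Oligodendrocyte precursors (1569 ± 582, n = 6) and microglia (1284 ± 376, n = 4) had enough nuclei in few mice, and no single gene is reported for them. Among the 5 larger classes, 33 of the 44 genes had their highest mean in meninges/Schwann nuclei, 3 in endothelial/vascular nuclei, 4 in neurons, 3 in astrocytes and 1 in oligodendrocytes. The same count over all genes was not made, and some places rest on small differences. Col17a1 led in meninges/Schwann nuclei with 3.00 against 2.93 CPM, in 4 of 23 mice, and Col6a5 with 5.04 against 3.75, in 4 of 24. Col4a3 led in endothelial/vascular nuclei with 30.9 against 28.5, in 10 of 23 mice. Col10a1, counted under neurons, was the 1 member under 20 UMIs in all classed nuclei, with 4 UMIs.

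**Figure D1:**
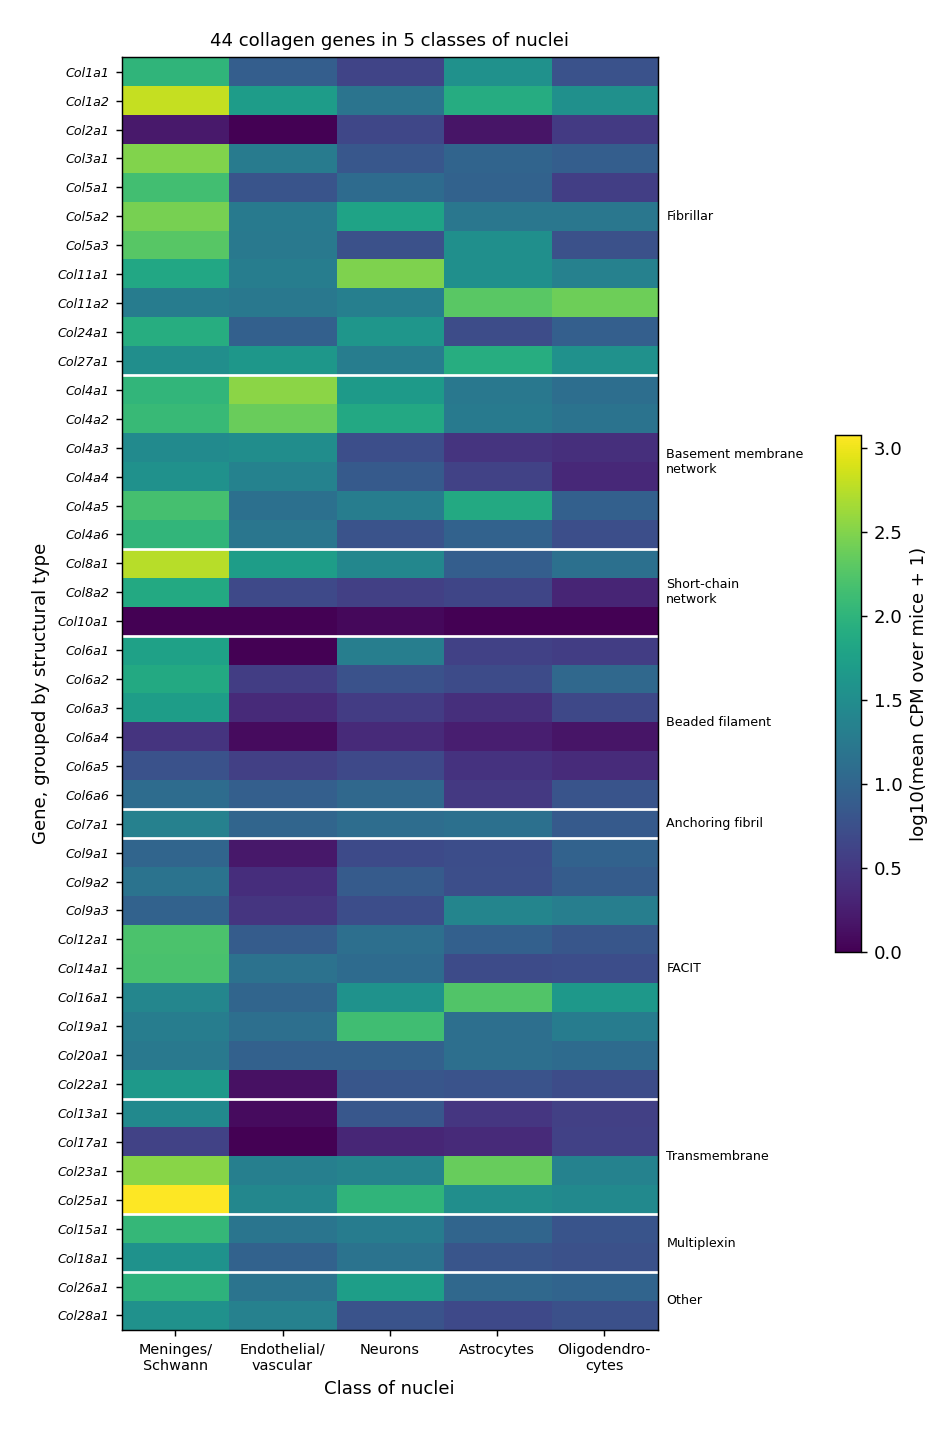
Colour gives log10 of the mean CPM over mice plus 1 for each of the 44 collagen genes (rows, grouped by structural type) in 5 classes of nuclei (columns). The meninges/Schwann column is bright across most types, the endothelial/vascular column is brightest at Col4a1 and Col4a2, and the neuron column at Col11a1, Col19a1 and Col25a1.

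Fibrillar collagens were the most abundant type in meninges/Schwann nuclei, at 1874 ± 583 CPM. Col1a2, a chain of type I collagen, the main fibre protein of connective tissue, lay at 647 ± 217 CPM, with 346 in the lowest mouse, a median of 615 and 1452 in the highest. Its partner chain Col1a1 was at 103 ± 84.9, and Col3a1, the chain of type III fibrils, at 312 ± 319, where the SD exceeded the mean. The chains of type V, which fibrils of type I are known to contain, lay at 281 ± 100 for Col5a2, 191 ± 107 for Col5a3 and 138 ± 41.7 for Col5a1. Further fibrillar genes were Col24a1 at 82.2 ± 62.2, Col11a1 at 68.6 CPM and Col27a1 at 31.8.

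Transmembrane collagens came next, at 1564 ± 708 CPM, and nearly all of it was from a pair of genes. Col25a1 had the highest level of any collagen gene in the class, 1197 ± 724, from 128 in the lowest mouse through a median of 1049 to 2682 in the highest. Col23a1, which encodes another membrane-spanning collagen, was at 336 ± 125, from 84.2 through 320 to 640. Col13a1 was at 27.6 CPM. Col25a1 UMIs fell in fewer nuclei than those of Col1a2. Col25a1 was seen in 325 of 1839 meninges/Schwann nuclei (17.7%) and Col1a2 in 735 (40.0%), at a median of 1281 UMIs per nucleus. The shares in oligodendrocytes, at a median of 1092 UMIs, were 3.34% for Col25a1 and 3.75% for Col1a2. After each nucleus was thinned to 500 UMIs, which left out 111 meninges/Schwann and 193 oligodendrocyte nuclei, the shares were 14.8% and 20.3% in the first class and 1.21% and 2.01% in the second.

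Short-chain network collagens summed to 629 ± 302 CPM. Col8a1 made up most of this, at 556 ± 283, from 136 through a median of 513 to 1120, and its partner Col8a2 was at 72.6. Basement membrane chains were at 541 ± 169 in sum, spread over all 6 genes: Col4a5 147 ± 74.1, Col4a2 118 ± 65.0, Col4a1 107 ± 53.0, Col4a6 106 ± 64.5, Col4a4 35.5 and Col4a3 28.5 CPM. No single type IV gene led the class by more than the spread between mice.

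Collagens that coat fibrils (FACIT collagens) summed to 457 ± 128 CPM, led by Col12a1 at 162 ± 91.3 and Col14a1 at 157 ± 80.7. Col22a1, known from tissue junctions, was at 45.8 and Col16a1 at 25.2. The type VI chains, which form beaded filaments around cells, summed to 198 ± 102, with Col6a2 at 72.6, Col6a1 at 57.4 and Col6a3 at 50.1. Multiplexins, collagens of basement membrane zones, were at 146 ± 96.9, from Col15a1 at 110 ± 82.3 and Col18a1 at 36.2. Col26a1 (97.1 ± 42.0) and Col28a1 (35.2) belong to neither group, and Col7a1, the anchoring fibril collagen, was at 21.7 ± 21.5.

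UMI levels of different genes depend on how much of a gene can be captured, so genes were also set side by side per length. Per 100 kb of gene span the order in meninges/Schwann nuclei was Col1a2 at 1761 CPM, Col3a1 at 818, Col1a1 at 615, Col8a1 at 426 and Col5a3 at 423, and Col25a1, whose span is 468.4 kb, was at rank 9 with 255. Per kb of exon Col25a1 was at rank 1 again, with 92.4 CPM, ahead of Col8a1 with 71.0. The rank of Col25a1 thus depended on the scale, while Col8a1 was among the first 4 genes on both.

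In endothelial/vascular nuclei the type IV chains Col4a1 and Col4a2, which together form the common network of vessel basement membranes, were the most abundant collagens. Col4a1 was at 352 ± 178 CPM, from 118 in the lowest mouse through a median of 334 to 976 in the highest (n = 23), and Col4a2 at 233 ± 75.1, from 72.4 through 233 to 346. Col4a1 was above the meninges/Schwann level in 23 of 23 mice and Col4a2 in 22 of 23, by 3.24 and 1.90 times. Per 100 kb of span they were again at ranks 1 and 2, with 308 and 171 CPM. The type as a whole was at 666 ± 209 and fibrillar collagens at 199 ± 119.

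The remaining genes of the endothelial/vascular class were low. Col8a1, first described in endothelial cells, was at 50.3 CPM, Col1a2 at 49.9 ± 56.8, Col27a1 at 41.4 ± 32.8, Col4a3 at 30.9, Col25a1 at 25.7, Col4a4 at 21.9, Col28a1 at 21.4 and Col23a1 at 20.2. Col6a1, Col17a1, Col2a1 and Col10a1 had 0 UMIs among 1328472, which allows up to 2.26 CPM. This limit covers counting error only. Meningeal fibroblast markers were not at 0 in this class: 8 of 10 had UMIs, with a summed level of 102.6 to 456 CPM over mice. Of the pooled sum of 284 CPM, Slc6a20a made up 124 and Foxc1 85.8, and Foxc1 was at only 28.9 in meninges/Schwann nuclei. Ranbp3l and Slc47a1 were at 9.79 and 5.27, against 1264 and 448 in meninges/Schwann nuclei. The part of meningeal cells or RNA in the low collagen levels was not tested.

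**Figure D2:**
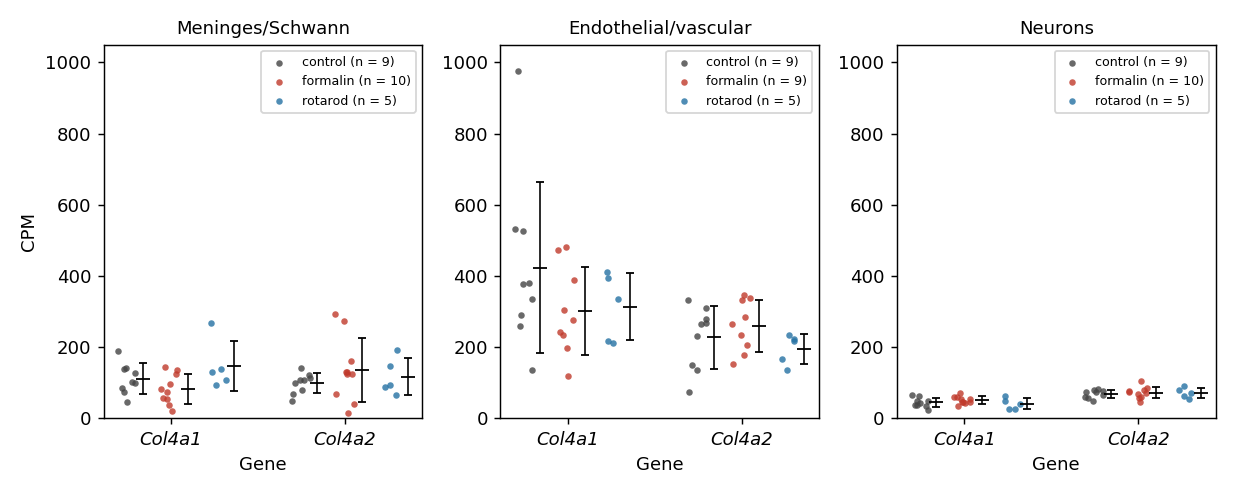
Each point is the CPM of Col4a1 or Col4a2 in 1 mouse in meninges/Schwann (left), endothelial/vascular (middle) and neuronal nuclei (right), with the mean and SD of each group in black. The endothelial/vascular points lie highest for both genes, and 1 control mouse reached 976 CPM of Col4a1.

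The type IV genes lie in head-to-head pairs, with start sites 21 bases apart for Col4a1 and Col4a2 on chromosome 8, 72 for Col4a3 and Col4a4 on chromosome 1, and 1309 for Col4a5 and Col4a6 on chromosome X. The ratio of partners differed between classes when mice were pooled. Col4a1 and Col4a2 gave 316 and 313 UMIs in meninges/Schwann nuclei, 448 and 322 in endothelial/vascular nuclei (a ratio of 1.39) and 951 and 1440 in neurons (a ratio of 0.660). Col4a5 and Col4a6 gave 404 and 274 UMIs in meninges/Schwann nuclei and 125 and 17 in astrocytes. Col4a1 and Col4a2 overlap by 22 bases on opposite strands, and antisense genes overlap both. No source used here gives the strand of the counting, so reads could be shared there.

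In astrocytes the highest collagens were Col23a1 at 227 ± 128 CPM, Col11a2 at 192 ± 105, Col16a1 at 175 ± 57.0, Col27a1 at 81.9 ± 53.4, Col1a2 at 79.5 ± 39.4 and Col4a5 at 72.8 ± 26.9 (n = 23). Of these, Col16a1 and Col27a1 had their highest level of the 5 classes there, while Col23a1, Col1a2 and Col4a5 were higher in meninges/Schwann nuclei. Col11a2, a chain of type XI fibrils, was the highest collagen of oligodendrocytes at 248 ± 83.1, and the other 43 genes stayed at or below the 42.6 ± 21.1 of Col16a1. In pooled astrocytes Col1a2 was at 11.7% of its meninges/Schwann level, against 1.80% in neurons.

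In neurons the fibrillar collagen Col11a1 led, at 301 ± 80.4 CPM, from 182 in the lowest mouse through a median of 305 to 452 (n = 24). Col19a1, a fibril-coating collagen known from synapse formation, was at 135 ± 21.1, from 99.3 through 134 to 174. Both were above the meninges/Schwann level in 24 of 24 mice. Col25a1 was at 103 ± 23.1, Col4a2 at 70.1 ± 13.6, Col5a2 at 60.5 ± 28.1, Col26a1 at 52.2, Col4a1 at 46.6, Col24a1 at 41.0 and Col16a1 at 35.7. Between 19.0 and 25.3 CPM stood Col8a1, Col23a1, Col11a2, Col6a1, Col27a1 and Col4a5.

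RNA carried over between nuclei in the droplets can put UMIs of meningeal and Schwann cell genes in neurons. The pooled neuronal level was 1.41% of the meninges/Schwann level for Col3a1, 1.80% for Col1a2, 2.20% for Col5a3 and 2.65% for Col1a1. For the meningeal marker Ranbp3l it was 1.07%. Other collagens that were high in the meninges/Schwann class had larger shares, with Col8a1 at 3.83%, Col6a2 at 5.64%, Col12a1 at 7.65% and Col5a1 at 7.92%. Col25a1 in neurons was at 8.35%, close to these last, and the part of carried-over RNA in it was not tested. Col26a1 was at 49.1%, Col4a2 at 58.7% and Col16a1 at 132% of their meninges/Schwann levels, and Col11a1 and Col19a1 also lay above theirs. Per 100 kb of span Col11a1 was at rank 1 in neurons with 158 CPM, followed by Col6a1 with 115.

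Nuclei of the meninges/Schwann class were then divided by markers that hold no collagen gene. A nucleus was put on the Schwann-marker side when its summed UMIs of the 10 Schwann cell markers exceeded those of the 10 meningeal fibroblast markers, and on the meningeal-marker side in the opposite case. This gave 763 Schwann-marker nuclei (median 1235 UMIs), 792 meningeal-marker nuclei (median 1417) and 284 on neither side, and all 24 mice had both sides. Collagens summed to 7541 ± 1839 CPM in meningeal-marker and 3925 ± 833 in Schwann-marker nuclei, and the first was higher in 24 of 24 mice. Counts were summed per mouse and side and tested with edgeR's quasi-likelihood test, with the mouse as a block, and p-values were adjusted by Benjamini-Hochberg over all genes tested.

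The expression filter of the test passed 5 of the 44 collagen genes, and 3 of these 5 were called at an adjusted p under 0.05, where 69.9% of all 707 genes passing the filter were called. A share of 3 in 5 is close to that background. Col25a1 was at 2136 ± 1207 CPM in meningeal-marker nuclei, from 222 through a median of 2111 to 4992, and at 192 ± 338 in Schwann-marker nuclei, from 0 through 40.2 to 1121. It was higher on the meningeal side in 24 of 24 mice, and the log2 fold change, Schwann over meningeal, was -4.04 ± 0.64 (SE, edgeR adjusted p = 7.83e-10). Col8a1 was at 1020 ± 591 against 113 ± 147, also higher in 24 of 24 mice, with a log2 fold change of -3.46 ± 0.48 (edgeR adjusted p = 1.69e-12). Col23a1 ran the other way, at 397 ± 135 in Schwann-marker and 279 ± 185 in meningeal-marker nuclei, higher in 20 of 24 mice (0.65 ± 0.19, edgeR adjusted p = 0.000931). Col1a2 (0.00) and Col5a2 (-0.18) were not called. Col1a2 stood at 694 ± 342 in Schwann-marker and 724 ± 381 in meningeal-marker nuclei, and the groups overlapped throughout.

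Without a filter on low counts 43 of the 44 genes could be fitted, all but Col10a1. Of these, 9 were called higher in Schwann-marker and 17 higher in meningeal-marker nuclei, where 11.4% of all 22635 genes were called, 5.41% and 6.04% in these directions. The median log2 fold change was -0.63 over the 43 collagen genes and -0.00410 over all genes. Many of the 43 are low, and the fold changes of low genes are imprecise. In the following the log2 fold changes are from this unfiltered fit, Schwann over meningeal.

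On the Schwann-marker side the fibrillar genes Col24a1 and Col5a3 stood out. Col5a3 was at 373 ± 187 CPM in Schwann-marker nuclei, from 80.0 through a median of 391 to 803, against 33.8 ± 30.7, from 0 through 29.9 to 101. It was higher in 24 of 24 mice, with a log2 fold change of 3.34. Col24a1 was at 195 ± 147 against 2.39 ± 5.06 CPM, with 211 and 6 UMIs, and was higher in 22 of 24 mice (4.65). Col24a1 is overlapped by an antisense gene.

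The FACIT gene Col14a1 was at 306 ± 136 against 55.0 ± 67.7 CPM (2.51, higher in 22 of 24 mice). Col4a1 and Col4a2, whose protein network is part of the basement membrane around Schwann cells, lay at 186 ± 104 against 51.2 ± 29.6 (1.82) and 207 ± 136 against 54.1 ± 31.9 (1.85), higher in 22 and 21 of 24 mice. Col28a1, known from Schwann cells, was at 73.9 against 11.6 (2.65). Col7a1 (1.67), Col26a1 (0.99) and Col23a1 (0.73) completed the 9.

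On the meningeal-marker side, after Col25a1 and Col8a1, Col12a1 was at 312 ± 168 against 24.4 ± 29.8 CPM and Col3a1 at 561 ± 542 against 64.2 ± 42.4. Both were higher in 24 of 24 mice, with log2 fold changes of -3.34 and -2.83. Of the 6 type VI genes 4 were called the same way: Col6a1 by -3.59 (111 against 8.52 CPM), Col6a2 by -3.22 (128 against 13.8), Col6a3 by -2.21 and Col6a6 by -1.89. Col4a5 and Col4a6 were at 245 ± 133 against 39.8 and at 205 ± 156 against 14.2, each higher in 23 of 24 mice (-2.27 and -3.04). Col4a3 changed by -3.49 and Col4a4 by -1.85, so the 6 type IV genes were called in opposite directions, Col4a1 and Col4a2 against the other 4. Col13a1 (-3.56), Col22a1 (-2.63), Col18a1 (-1.70), Col8a2 (-1.19) and Col1a1 (-0.91) were the other genes called.

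Of the 17 unfiltered genes not called, Col1a2 (0.07), Col5a1 (0.13) and Col5a2 (-0.10) had UMI levels above 100 CPM on both sides. Col15a1 was at -0.63 (edgeR adjusted p = 0.105) and Col11a1 at -0.84 (edgeR adjusted p = 0.0566).

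**Figure D3:**
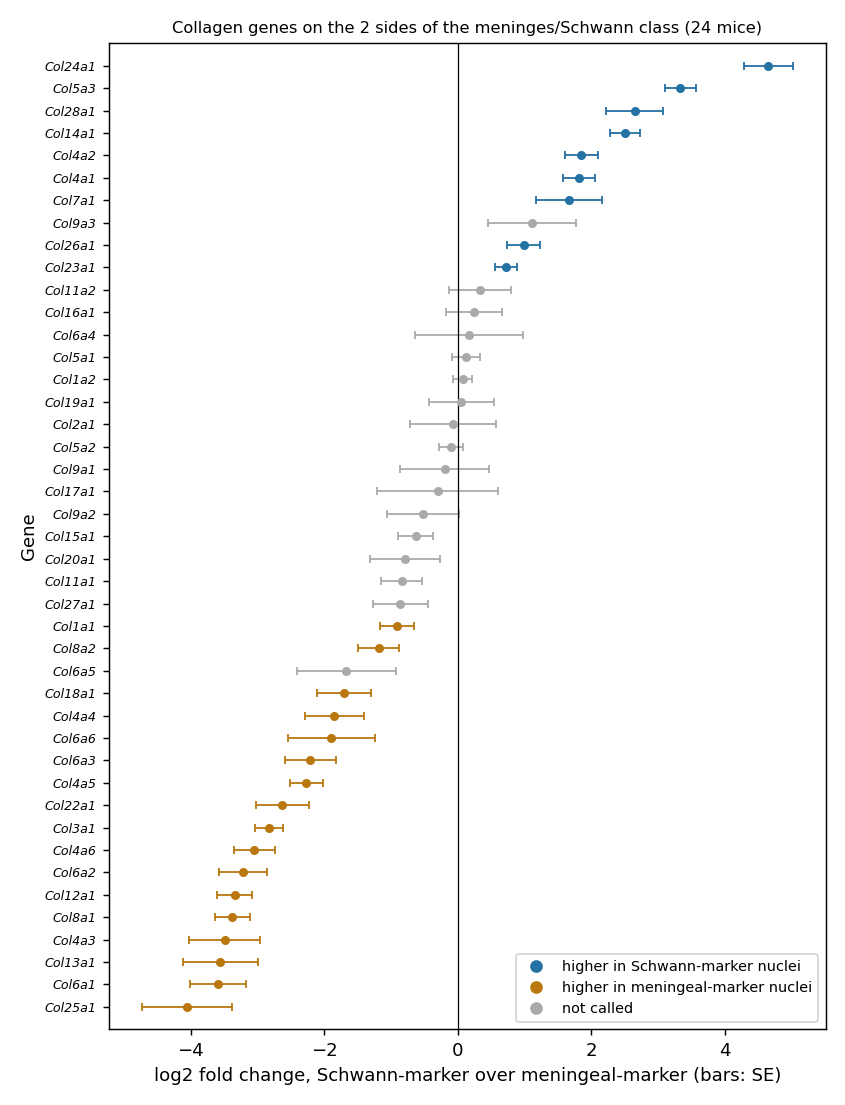
Points give the log2 fold change of Schwann-marker over meningeal-marker nuclei and bars its standard error, for 43 collagen genes in the unfiltered edgeR fit over 24 mice. Blue genes were called higher in Schwann-marker nuclei (9), brown genes higher in meningeal-marker nuclei (17) and grey genes were not called.

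Genes that make, crosslink or bind collagen were read in the same unfiltered fit, from lists of partner genes, and their counts stand beside the 5.41% of all genes called higher in Schwann-marker and 6.04% called higher in meningeal-marker nuclei. Of 12 tested genes for propeptide cleavage and crosslinking, 6 were higher in meningeal-marker nuclei, among them Adamts2, which removes the amino-terminal propeptide (-3.11), Loxl1, a crosslinking oxidase (-3.91), and Bmp1, which removes the carboxy-terminal one (-1.45). Tll1, a relative of Bmp1, was higher in Schwann-marker nuclei (1.90). Of 7 receptors, Ddr2 (-3.29) and 3 integrin genes were higher on the meningeal side and Itga2 on the Schwann side (3.30).

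Of 13 basement membrane partners 4 were higher on each side, with the laminin gene Lamb1 at 3.88 and Lama1 at -3.60. Of 8 fibril partners tested, 5 were higher on the meningeal side, such as Fn1 (-3.27) and Fbln1 (-3.61), and 2 on the Schwann side, Sparc (1.57) and Fbln5 (2.08). Dcn and Lum of that list are markers used for the division and were not tested. Of 19 genes for synthesis and folding 3 were higher on the meningeal side and P4ha1, a subunit of prolyl hydroxylase, on the Schwann side (1.38). Of 5 degrading enzymes, Mmp14 was higher on the meningeal side (-1.42).

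The endothelial/vascular class was divided in the same way into 75 nuclei with mural (pericyte and smooth muscle) markers and 639 with endothelial markers. A stricter rule, at least 2 UMIs of the side and none of the other, left 1 mural-marker and 25 endothelial-marker nuclei. The other 701 of 727 nuclei were then on neither side, so a side of the main division need not be free of the other's markers. In the 11 mice with at least 3 nuclei on both sides of the main division, no collagen gene passed the filter among 255 genes, of which 25.9% were called. Col4a1 was at 354 ± 244 CPM in mural-marker and 362 ± 131 in endothelial-marker nuclei, higher in mural-marker nuclei in 6 of 11 mice. Col27a1 was at 153 ± 141 against 34.7 ± 24.8, higher in 8 of 11 mice, from 17 and 22 UMIs. In the unfiltered fit Col4a2 was the 1 of 38 collagen genes called, where 4.47% of 18207 genes were called. Of these 814 genes, 769 were higher on the endothelial and 45 on the mural side. The median log2 fold change, mural over endothelial, was -0.67 over all genes and -0.39 over the 38 collagen genes, so this fit leaned to the endothelial side. Col4a2 was at 205 ± 201 in mural-marker and 271 ± 73.0 in endothelial-marker nuclei (log2 fold change -1.31 ± 0.39, edgeR adjusted p = 0.0274). It was higher on the endothelial side in 7 of 11 mice.

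Whether the stimuli changed collagen RNA was tested on counts summed per mouse, with 1 edgeR fit over the 3 groups in each class. Most formalin samples n and n + 5 resembled each other more than they did any other formalin sample, so they may not be independent. The closest sample was this partner for 10 of 10 samples in neurons, 9 of 10 in meninges/Schwann nuclei and 8 of 9 in endothelial/vascular nuclei. Merging these pairs also left 0 collagen genes called in each class. In meninges/Schwann nuclei 22 collagen genes passed the filter and 0 were called in any of the 3 comparisons. Of all 3273 genes, 0% were called in formalin against control, 0.0917% in rotarod against control and 0.0611% in formalin against rotarod. DESeq2 also called 0 collagen genes. At an unadjusted p under 0.05 edgeR had 1, 2 and 2 collagen genes in that order. The median log2 fold change of the 22 genes was -0.15 with formalin and 0.05 with rotarod against control, where all genes were at -0.02 and -0.00203. The comparisons share samples and are not independent. No gene of the collagen partner lists that passed the filter was called in any class or comparison of stimuli.

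All collagens in meninges/Schwann nuclei summed to 5917 ± 1080 CPM in control (n = 9), 5287 ± 819 in formalin (n = 10) and 5474 ± 1706 in rotarod mice (n = 5). Col25a1 ran from 454 through a median of 1202 to 1759 in controls and from 136 through 995 to 2217 in formalin mice. The 5 rotarod mice had 2598, 128, 718, 2682 and 523 CPM, so that the group held both the lowest and the highest mouse. Its log2 fold change was -0.18 ± 0.47 with formalin and 0.16 ± 0.56 with rotarod against control (edgeR adjusted p = 0.992 and 0.980).

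The smallest p-values were those of Col1a1, Col1a2 and Col23a1. Col1a1 ran from 58.9 through a median of 98.5 to 239 CPM in controls, and was 38.2, 42.6, 55.3, 24.3 and 89.8 in the rotarod mice. Of the 5 rotarod mice 4 lay below all controls, and the log2 fold change was -1.23 ± 0.49 (edgeR p = 0.0121, adjusted p = 0.544). Col1a2 ran from 447 through 641 to 1452 in controls and was 586, 511, 451, 346 and 620 in the rotarod mice, with the ranges overlapping (-0.58 ± 0.23, edgeR p = 0.0131, adjusted p = 0.544). Col23a1 was at 379 ± 123 in control and 264 ± 102 in formalin mice (-0.52 ± 0.22, edgeR p = 0.0182, adjusted p = 0.826) and at 405 ± 117 in rotarod mice. Against rotarod mice it was lower with formalin by -0.67 ± 0.25 (edgeR p = 0.00787, adjusted p = 0.314).

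The makeup of the class also varied between mice. Meningeal-marker nuclei were 47.2% ± 13.5 of the class in control, 42.5% ± 9.99 in formalin and 39.3% ± 14.1 in rotarod mice, and Schwann-marker nuclei 38.4% ± 13.3, 40.9% ± 9.84 and 44.2% ± 10.8. The summed meningeal fibroblast markers were at 2682 ± 893, 2848 ± 1049 and 2132 ± 966 CPM in the same order, with all 10 markers above 0. Their part in the values of Col1a1 and Col1a2 was not tested.

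**Figure D4:**
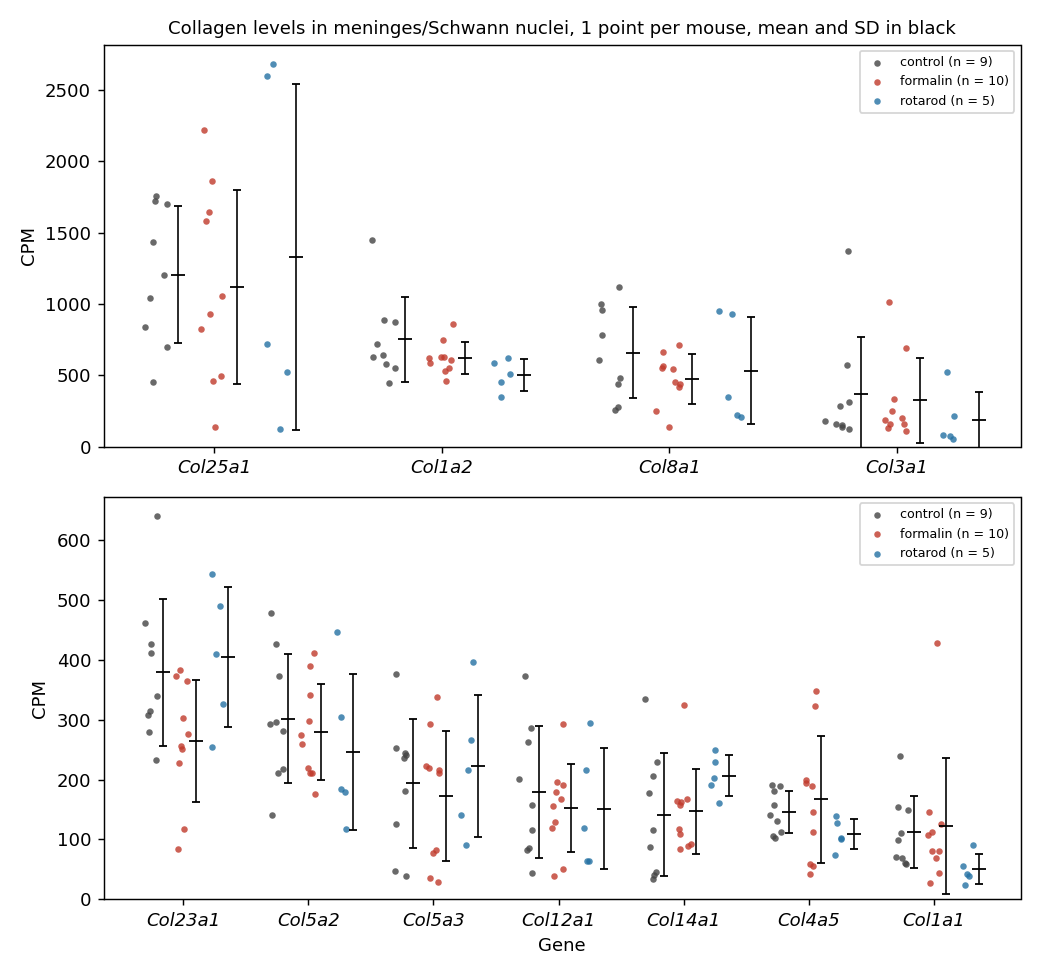
Points are CPM in the meninges/Schwann nuclei of 1 mouse, in control (grey), formalin (red) and rotarod mice (blue), with the mean and SD of each group in black (bars are drawn from 0 upward). The groups overlap for all 11 genes drawn, and Col25a1 spans 128 to 2682 CPM within the rotarod mice.

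In endothelial/vascular nuclei only Col4a1 and Col4a2 passed the filter, and 0 of 2 were called in each comparison, where 0% of 1334 genes were called by edgeR and neither gene had an unadjusted p under 0.05. DESeq2 called neither. Col4a1 was at 424 ± 241 CPM in control (n = 9), 302 ± 124 in formalin (n = 9) and 314 ± 94.9 in rotarod mice (n = 5), and the ranges overlapped. The rotarod mice were at 412, 393, 334, 218 and 211. Its log2 fold change was -0.36 ± 0.26 with formalin (edgeR adjusted p = 0.999) and -0.38 ± 0.28 with rotarod against control (edgeR adjusted p = 0.711).

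In neurons 22 collagen genes passed the filter and 0 were called by edgeR. Of all 9103 genes 0% were called in formalin against control, 0% in rotarod against control and 2.14% in formalin against rotarod. With formalin samples merged in pairs, 0 of 9984 genes were called in formalin against rotarod. DESeq2 called 0 collagen genes as well, and each comparison had 2 collagen genes at an unadjusted p under 0.05 in edgeR. Col5a2, a type V chain, had the smallest adjusted p. It ran from 31.6 through a median of 69.4 to 110 CPM in formalin mice and was 56.6, 28.1, 34.3, 31.5 and 48.8 in the rotarod mice. The formalin range reached above all 5 rotarod mice but overlapped with them (log2 fold change 0.83 ± 0.31, edgeR p = 0.0065, adjusted p = 0.117). The gene was called when no filter was used (0.78, edgeR adjusted p = 0.0101) and when the 2 groups were fitted alone (0.84, edgeR adjusted p = 0.0265).

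The other genes at an unadjusted p under 0.05 in neurons were low. Col7a1 was at 15.1 ± 9.85 CPM in control, 10.5 ± 5.17 in formalin and 7.31 ± 4.75 in rotarod mice (log2 fold changes of -0.74 and -1.19 against control, edgeR adjusted p = 0.566 and 0.350). Col8a1 was at 18.3 ± 6.75 in control and 29.2 ± 19.3 in formalin mice (0.64, edgeR adjusted p = 0.547), where 1 formalin mouse had 80.0. Col6a1 (rotarod against control, -0.74, edgeR adjusted p = 0.578) and Col27a1 (formalin against rotarod, -0.61, edgeR adjusted p = 0.217) were not called either. The main neuronal collagens differed by little: Col11a1 by 0.19 ± 0.15 and Col19a1 by 0.16 ± 0.11 with formalin against control.

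Of the neurons, 4280 carried 1 of 43 population names, whose first letters give 8 families. In these codes D was taken for dorsal, M for mid, V for ventral, E for excitatory and I for inhibitory, while VC and VM were left as they are. Family levels are means over mice with at least 5 nuclei of the family. All collagens summed to between 882 ± 276 CPM in VC (n = 22) and 1241 ± 389 in VI (n = 22), a range within the spread between mice.

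Col11a1 was highest in VI, at 380 ± 210 CPM, and DI, at 360 ± 219, which did not differ beyond their spread, with VI above DI in 12 of 22 mice. It was lowest in VC, at 119 ± 103, below VI in 19 of 20 mice. The order was VI, DI, DE, VM, MI, VE, ME, VC. Col19a1 ran VI, VE, ME, VM, MI, DI, DE, VC, from 219 ± 89.5 and 204 ± 89.3 in VI and VE, which overlapped, down to 52.2 ± 32.1 in DE and 46.7 in VC.

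Col5a2 was at 140 ± 94.1 in DE, above the 41.2 ± 49.4 of VM in 8 of 9 mice, and at 7.64 ± 18.1 in ME. Col25a1 was highest in MI, at 258 ± 195, with VM next at 153 ± 129 and MI above VM in 5 of 9 mice, and lowest in VI, at 48.4 ± 41.7. Col6a1 was at 60.8 ± 42.0 in DI, 26.2 ± 20.0 in DE and 1.41 ± 3.07 in VE. Col16a1 reached 93.5 ± 75.0 in VI and Col4a4, a chain of the type IV network of the kidney and inner ear, 36.5 ± 40.6 in MI, where it was at or below 6.23 in the other families.

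**Figure D5:**
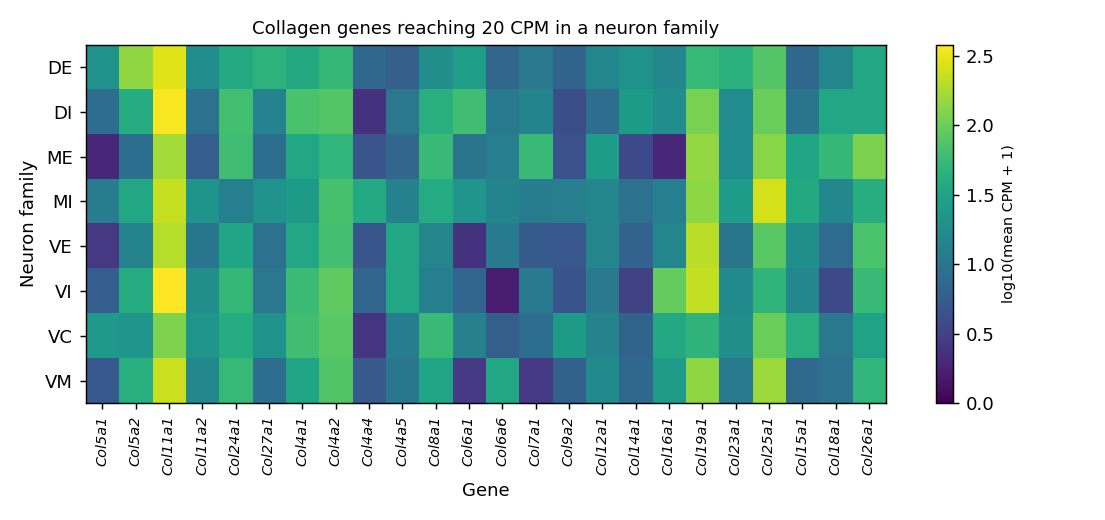
Colour gives log10 of the mean CPM over mice plus 1, for each collagen gene that reached 20 CPM in a neuron family (columns) in 8 families (rows). Col11a1 is bright in every family, Col19a1 and Col16a1 are brightest in VI, Col5a2 in DE, Col25a1 in MI and Col6a1 in DI.

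Tests between families used control mice, blocked by mouse, with equal weight for each family. The authors drew the families from these transcriptomes, so these tests are no independent evidence that a gene marks a family. In dorsal (DE and DI) against ventral families (VE, VI, VC and VM) 6 collagen genes passed the filter and 3 were called, where 29.6% of 3072 genes were called. In control mice Col5a2 was at 160 ± 110 CPM in DE and 25.7 ± 15.5 in DI, against 8.95 ± 8.64 in VE and 44.7 ± 59.3 in VI, and was higher in dorsal families by 1.27 ± 0.39 on the log2 scale (edgeR adjusted p = 0.00552). Col11a1 was higher by 0.46 ± 0.14 (edgeR adjusted p = 0.00457). In control mice it was at 282 ± 126 in DE and 284 ± 92.7 in DI, against 409 ± 183 in VI, 209 ± 63.8 in VE, 122 ± 82.1 in VC and 211 ± 165 in VM, so VI stood above both dorsal families. Col19a1 was lower, at -0.78 ± 0.23 (edgeR adjusted p = 0.00493). Col4a2 was at -0.42 (edgeR adjusted p = 0.0679), and Col25a1 and Col24a1 were not called. Without control replicate 7 the calls of Col11a1 (0.35, edgeR adjusted p = 0.0656) and Col19a1 (-0.52, edgeR adjusted p = 0.110) were lost, and without control replicate 1 that of Col5a2 (1.09, edgeR adjusted p = 0.0600).

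The unfiltered fit called 8 of 44 collagen genes higher in dorsal and 2 higher in ventral families, where 5.27% of 26022 genes were called, 4.03% and 1.24% in these directions. The type VI genes Col6a1 (2.99) and Col6a2 (2.46) had the largest log2 fold changes toward dorsal families. Col18a1 (2.37), Col13a1 (2.24), Col14a1 (1.85), Col5a2 (1.38), Col23a1 (1.30) and Col11a1 (0.58) were also higher there, and Col16a1 (-0.93) and Col19a1 (-0.65) in ventral families. Over mice of all groups Col16a1 was at 93.5 CPM in VI, 35.3 in VC, 24.9 in VM and 14.4 in VE. It was at 14.8 in DE and 17.5 in DI, so VE was not above the dorsal families.

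In excitatory (DE, ME and VE) against inhibitory families (DI, MI and VI) 2 of 6 collagen genes were called, where 8.89% of genes were called. Col11a1 was lower in excitatory families by -0.54 ± 0.16 (edgeR adjusted p = 0.0109) and Col19a1 by -0.67 ± 0.23 (edgeR adjusted p = 0.0400). In formalin and rotarod mice, fitted in place of controls, they were at -0.31 (edgeR adjusted p = 0.282) and -0.15 (edgeR adjusted p = 0.726), so neither call was seen in the second set of mice. Col11a1 lost its call without control replicates 8 or 9 and Col19a1 without control replicates 1, 2, 5, 6 or 7. The unfiltered fit called 4 of 44 genes, where 1.08% of genes were called, adding Col16a1 (-2.20) and Col6a1 (-1.61). Over mice of all groups Col16a1 was at 93.5 CPM in VI, but at 17.5 in DI and 11.9 in MI. In the excitatory families it was at 14.8 in DE, 14.4 in VE and 0.965 in ME.

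Within the families single populations stood apart. Pooled over mice, Col5a2 was at 1132 CPM in DE-16, with 132 UMIs in 66 nuclei and in 16 of 23 mice, against a median of 24.9 over the 43 populations. Col11a1 was at 1100 in DE12, seen in 23 of 23 mice, at 913 in DE-2 and at 803 in DI-6, against a median of 196. Col25a1 was at 719 in DI-5, in 14 of 18 mice, and at 462 in DE-8.

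For several genes of lower level the highest population was followed by others. Col23a1 was at 314 CPM in DE-4 (59 UMIs) and 173 in DE-15, and Col6a1 at 306 in DI-2 (39 UMIs) and 177 in DI-3. Col24a1 was at 217 in DI-3 (77 UMIs) and 179 in DE12, and Col16a1 at 140 in VI-1 (68 UMIs) and 94.7 in VI-2. Col4a4 was at 51.8 in MI-3, from 41 UMIs in 15 of 24 mice, against a median of 2.43. Col8a1 was at 167 in DI-1, but 31 of its 38 UMIs came from 1 mouse.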

How the data were processed

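Nuclei from 24 samples, each counted as 1 mouse, were profiled by Drop-seq. The deposited count table holds raw UMI counts of 32962 genes over 18000 barcodes (750 from each mouse), and another deposited table assigns barcodes to classes and neuron populations. The authors had discarded 3818 barcodes and 757 had no label, and neither entered a comparison. The builds are mm10 and GRCm38, per the submitters' processing notes. Aligner, annotation, strand and the treatment of intronic reads are not given in the sources. Doublets were not called again. Of 18000 barcodes, 19 sequences occurred in more than 1 library.

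The mouse was the replicate. Counts were summed per mouse and class (at least 10 nuclei), family (at least 5) or marker side (at least 5, or 3 in the endothelial/vascular class), and tested with edgeR 4.0.16 in R 4.3.3 (quasi-likelihood, robust fit, TMM scaling, expression filter by group) with Benjamini-Hochberg adjustment over all genes tested at 0.05. The fit of a class held all 3 groups, and the fits of sides and families had the mouse as a block. Standard errors were derived from the fold change and the p-value of the test. DESeq2 1.42.0 was the other tool, and the edgeR fits used limma 3.58.1. Markers were left out of the tests between the sides they define. Total UMIs per mouse had a median of 1236920. On simulated counts the fits recovered 82.6% of genes changed 2-fold in meninges/Schwann nuclei, 85.7% in endothelial/vascular nuclei and 85% in neurons for formalin against control, with 5 false calls in each. These shares are over all genes changed in the simulation. They do not give the recovery of a single collagen gene, such as Col25a1 or Col1a1, whose levels varied widely between mice. Python 3.11.15, numpy 2.4.6, scipy 1.17.1, pandas 2.3.3 and matplotlib 3.10.9 were used, and GENCODE M21 gave gene positions, spans and exons.

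The collagen genes, the collagen types, the marker lists and the partner lists (synthesis and folding, propeptide cleavage and crosslinking, receptors, degrading enzymes, basement membrane partners, fibril partners) were chosen with earlier results of these data known. Values are given for collagen genes with mean levels from 20 CPM (UMIs per 1000000) upward in the meninges/Schwann, endothelial/vascular or neuron class or in a family, for those called in a test and for the highest of each structural type, and genes under 20 UMIs in all are only counted. Of the listed types, Col21a1 was not analysed here. Alternatives were DESeq2, no low-count filter, only the 2 groups compared, other minimums of nuclei, thinning to 500 UMIs, a stricter marker rule, control mice only, formalin samples merged in pairs, a replicate block, and leaving out each mouse. An unblocked fit of the same 10 mice, to set beside the block, and the division of meningeal-marker nuclei by Slc47a1 and Ranbp3l were chosen after seeing the data. Formalin and rotarod mice with the same number did not deviate together in neurons (correlations from -0.108 to 0.0442), so numbers gave no pairing there. The correlations ran from -0.131 to 0.243 in meninges/Schwann nuclei, the highest for number 2, and from -0.150 to 0.0782 in endothelial/vascular nuclei.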

Additional observations from a re-analysis of the deposited data

Results flagged for a closer look

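Among 171 sets of 4 to 10 mice (a gene in a class and group), 19 held 1 mouse set far apart from the others by Dixon's criterion, which chance flags in about 1 in 20 sets. Values are CPM.

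In meninges/Schwann nuclei of control mice, replicate 8 had 1452 of Col1a2 (others 447 to 888) and 1370 of Col3a1 (others 122 to 574), so both fibrillar genes were high in the same mouse. Control replicate 5 had 273 of Col24a1 (others 19.7 to 122) and control replicate 7 had 180 of Col6a3 (others 17.5 to 52.5).

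Formalin replicate 4 stood apart for 3 genes in meninges/Schwann nuclei, with 201 of Col11a1, 165 of Col13a1 and 146 of Col6a2. Formalin replicate 3 had 429 of Col1a1 (others 27.4 to 146), formalin replicate 2 had 324 of Col14a1 and formalin replicate 9 had 215 of Col8a2. Rotarod replicate 1 had 267 of Col4a1 (others 92.5 to 138) and rotarod replicate 3 had 64.5 of Col7a1.

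In endothelial/vascular nuclei, control replicate 5 had 976 of Col4a1 (others 137 to 532). Control replicate 1 had 98.6 of Col23a1 and 98.6 of Col27a1, formalin replicate 9 had 274 of Col1a2 (others 0 to 69.0), and rotarod replicate 4 had 101 of Col4a3. In neurons, rotarod replicate 3 had 46.7 of Col16a1 (others 28.2 to 29.5) and formalin replicate 7 had 80.0 of Col8a1 (others 11.3 to 34.9).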

How the results depend on the processing

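Counts of called collagen genes stayed at 0 in all 9 comparisons of stimuli under every alternative run, except for formalin against rotarod in neurons. There 1 gene, Col5a2, was called with no low-count filter, with only the 2 groups compared, and in the unblocked fit of formalin 1 to 5 against rotarod 1 to 5 (0.92, edgeR adjusted p = 0.0431), and the replicate block on the same mice called 0. With no low-count filter the count rose to 26 for Schwann-marker against meningeal-marker nuclei, 1 for mural-marker against endothelial-marker nuclei, 10 for dorsal against ventral and 4 for excitatory against inhibitory families. The construction tests more genes (43, 38, 44 and 44 collagen genes). With formalin and rotarod mice in place of control mice, excitatory against inhibitory families gave 0. The cause was not tested. Leaving out each mouse gave 1 to 4 called genes for dorsal against ventral families, with 1 without control replicate 7, and 1 to 2 for excitatory against inhibitory families, with 1 without control replicates 1, 2, 5, 6, 7, 8 or 9. Leaving out each mouse gave 3 in all cases for Schwann-marker against meningeal-marker nuclei. Control replicates 7, 8 and 9 are the controls whose titles have another form. They were left out singly, and no result without all of them is given here. The stricter marker rule called 2 of 3 tested genes and control mice alone 3 of 5, and the rule was not run for mural-marker nuclei, where it left 1 nucleus. DESeq2 called Col4a2 in dorsal against ventral families (-0.41, DESeq2 adjusted p = 0.0475). No value for a collagen gene changed direction among the called or named results.

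Depth limits what low genes can show. Of the 44 collagen genes, 22 passed the filter in meninges/Schwann nuclei and 2 in endothelial/vascular nuclei, and the rest were tested against the stimuli only where no filter was used (43 and 40 genes fitted). Formalin samples n and n + 5 resembled each other in neurons (10 of 10 were closest to that partner), and merging them called 0 collagen genes in each class.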

Other observations

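The meningeal-marker nuclei held a further division, described here without a test because its genes were chosen after their values were seen. Slc47a1, a transporter gene, and Ranbp3l are both on the meningeal fibroblast marker list. Of 792 meningeal-marker nuclei, 246 had more Slc47a1 than Ranbp3l UMIs, 354 the reverse, and 192 neither. Their medians were 1648, 1389 and 1085 UMIs per nucleus. Levels are means over the 21 mice with enough nuclei of both kinds.

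Col25a1 was at 6369 ± 2603 CPM in Slc47a1 nuclei and 141 ± 164 in Ranbp3l nuclei, higher in 21 of 21 mice. Col8a1 was at 2488 against 175 and Col12a1 at 769 against 43.9, also in 21 of 21 mice. Col6a2 (226 against 38.4, 20 of 21 mice) and Col8a2 (244 against 15.6) lay on the same side.

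The Ranbp3l nuclei had more of the type IV genes Col4a5 (352, higher in 19 of 21 mice), Col4a6 (254 against 9.07, 21 of 21 mice) and Col4a3 (88.2 against 8.21). Col5a1 (233 against 57.5), Col22a1 (145 against 9.74), Col26a1 (124 against 19.3) and Col23a1 (336 against 143) were higher there as well.

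Nuclei that the authors discarded held 1083 ± 313 CPM of all collagens in control, 790 ± 104 in formalin and 1192 ± 574 in rotarod mice, with a median of 613 UMIs per nucleus.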
